A study of Mus musculus with 24 samples.

Results

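The Pax genes form a family of 9 transcription factors, Pax1 to Pax9, and all 9 were described here from the methylation tables of adult mouse liver, brain and heart. The members were taken by name among 24963 curated autosomal RefSeq genes. Each gene was read from 5000 bp upstream of its first transcription start to its end. DNA methylation had been measured by enhanced reduced representation bisulphite sequencing, which reads CpG-rich fragments after unmethylated cytosines have been converted, and summarised by the authors in tiles of 100 bp. A tile was present in the table of a tissue only where every library of that tissue had more than 10 reads on it. Of 758685 tiles present in the tables of all 3 tissues, 700 lay in the Pax genes, and 780 Pax tiles were present in at least 1 table.

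The animals were C57BL/6J mice of 24 weeks of age with no allele or treatment named in the labels. The labels listed 12 liver libraries from 6 males and 6 females, 6 brain libraries from 3 males and 3 females, and 6 heart libraries from 3 males and 3 females. The 24 libraries came from 12 mice, of which 6 gave all 3 tissues, and 2 mouse numbers carried opposite genders in different tissues. The columns of levels carried neither a mouse nor a gender, so tissues were compared without pairing and the spread within a tissue covers both genders. Each tissue had its own table, so tissue and processing of that table cannot be told apart. DNA came from homogenised sections, rostral in the brain, apical in the heart and caudal in the left lobe of the liver. An intermediate level cannot tell a share of the cells from a share of the alleles in each cell.

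Pax proteins bind DNA through a paired domain, and several carry a homeodomain as well. They act in the embryo, where they set up regions and cell lineages of the axial skeleton, muscle, neural crest, eye, kidney, thyroid, pancreas, brain and B cells, and most are silent in adult liver and heart. Many of their starts, though not all, lie in CpG-rich stretches of the kind that Polycomb proteins cover in tissues where the gene is off. Such stretches are usually free of methylation whether or not the gene is used.

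The sequences of 9 tiles show what lies behind the levels given below. They were read from the mm10 genome, plus strand, and the capitals mark the CpGs that lie wholly inside the tile. A level belongs to the tile as a whole, and which of its CpGs had reads is unknown. The Pax1 tile held the most CpGs of all Pax tiles, the Pax8 tile was the CpG-dense body tile with the largest range of tissue means in its gene, and the others were the tiles with the largest range outside untranslated regions in Pax2, Pax3, Pax5 and Pax9, the called tile with the most CpGs in Pax6 and Pax7, and the Pax6 promoter tile with the largest range. Between called tiles with equal CpG numbers, the tile with the larger range was taken. The tiles of Pax1, Pax3, Pax7 and the Pax6 flank and last promoter were picked for display after their values were seen, and so were the further single tiles given for each gene beside those with the largest range and those of the longest runs.
Pax1, coding exon 1, chr2:147365101-147365200: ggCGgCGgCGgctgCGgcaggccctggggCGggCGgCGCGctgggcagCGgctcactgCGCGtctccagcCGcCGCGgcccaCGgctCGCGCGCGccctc
Pax2, intron 4, chr19:44785601-44785700: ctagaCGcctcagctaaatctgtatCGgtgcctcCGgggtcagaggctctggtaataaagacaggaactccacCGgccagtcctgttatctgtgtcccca
Pax3, intron 4, chr1:78171301-78171400: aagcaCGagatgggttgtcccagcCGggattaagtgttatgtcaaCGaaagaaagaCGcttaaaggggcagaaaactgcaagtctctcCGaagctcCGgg
Pax5, intron 2, chr4:44694401-44694500: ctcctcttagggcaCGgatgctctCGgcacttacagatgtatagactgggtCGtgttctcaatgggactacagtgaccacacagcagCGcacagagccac
Pax6, upstream, chr2:105666801-105666900: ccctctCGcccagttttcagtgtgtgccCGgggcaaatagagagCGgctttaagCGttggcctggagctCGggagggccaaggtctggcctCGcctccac
Pax6, internal promoter, chr2:105681401-105681500: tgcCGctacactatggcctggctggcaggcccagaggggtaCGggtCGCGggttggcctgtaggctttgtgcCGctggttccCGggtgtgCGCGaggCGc
Pax7, intron 4, chr4:139788701-139788800: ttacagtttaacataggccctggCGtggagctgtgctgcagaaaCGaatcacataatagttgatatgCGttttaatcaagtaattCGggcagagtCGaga
Pax8, exon 2 and intron 2, chr2:24475001-24475100: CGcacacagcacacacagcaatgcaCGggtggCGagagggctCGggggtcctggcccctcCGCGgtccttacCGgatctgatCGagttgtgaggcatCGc
Pax9, intron 3, chr12:56709201-56709300: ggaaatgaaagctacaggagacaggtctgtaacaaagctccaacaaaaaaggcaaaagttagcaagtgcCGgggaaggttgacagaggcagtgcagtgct

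Exon and intron numbers follow the longest curated RefSeq transcript of each gene. The Pax1 tile, with 19 CpGs, was unmethylated in all 3 tissues, with tissue means of 1.32% in liver, 0.85% in brain and 0.8% in heart. The tiles shown for Pax2, Pax3, Pax5 and Pax7 had 4 to 6 CpGs, and the Pax9 tile had 1.

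Libraries of a tissue were close in mean level and in correlation, with the widest spread in brain. The mean over all shared tiles was 64.8 to 66.1% in the liver libraries, 63.7 to 66.4% in the brain libraries and 59.6 to 60.3% in the heart libraries, so heart was lower over all shared tiles. Pairs of libraries correlated over these tiles at r = 0.965 to 0.977 in liver, 0.942 to 0.976 in brain and 0.964 to 0.977 in heart, with tiles as the points, and no pair held identical values. Genes known for each tissue were used to check the table labels. Over each gene with its 5000 bp flank, 10 of 10 measured liver genes were lowest in liver, 9 of 10 heart genes were lowest in heart and 6 of 10 brain genes were lowest in brain, while the other 4 brain genes were lowest in heart. Since heart was lower over all shared tiles, the count of heart genes is a weak check of the heart label. Of 5 blood cell genes and 4 endothelial genes, 4 and 4 were lowest in heart, and the part of these cells in the Pax levels was not tested.

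Tiles were put in 3 classes. A promoter tile touched the 1000 bp upstream of a curated start, a CpG-dense body tile lay within the gene outside promoters and held 7 or more CpGs, and the rest were other tiles. The shared Pax tiles held 57 promoter tiles, 93 CpG-dense body tiles and 550 other tiles, of which 11 lay upstream with 7 or more CpGs. Pax2, Pax5 and Pax7 had 21, 21 and 24 CpG-dense body tiles, and only 0.597%, 0.597% and 0.385% of the 13240 genes with such a tile had as many. These counts were not set against gene length, which was 91669, 185947 and 94888 bp in these 3 genes. Pax6 had the most promoter tiles, 22, spread over 4 starts, and Pax2 had 19 over 3 starts. Pax4 had 4 shared tiles, all in the other class, and Pax8 had no shared promoter tile, so nothing is said of the starts of these genes.

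Promoters and CpG-dense bodies of the Pax genes were low in all 3 tissues. Averaged over the 57 promoter tiles, the libraries ranged from 4.82 to 6.34% in liver with a median of 5.20%, from 6.65 to 8.69% in brain with a median of 8.06%, and from 3.52 to 4.24% in heart with a median of 3.95%. The brain libraries lay above all liver and heart libraries in this mean, and Pax6 held 22 of the 57 tiles. Without Pax6, an alternative chosen after the data were seen, the means were 5.03% in liver, 4.61% in brain and 3.54% in heart over 35 tiles, with brain libraries at 3.78 to 6.11% and liver libraries at 4.66 to 6.48%, so brain no longer stood above liver. The median difference of the 57 tiles was -0.558 points between brain and liver. Over the 93 CpG-dense body tiles, the libraries ranged from 4.77 to 6.17% in liver with a median of 5.19%, from 4.12 to 5.68% in brain with a median of 4.66%, and from 3.29 to 3.58% in heart with a median of 3.44%. Liver and brain overlapped, and heart lay below both. These means moved with the CpG limit of the class. From 5 CpGs they were 12.7% in liver, 12.9% in brain and 10.3% in heart, and from 10 CpGs 3.04, 2.46 and 1.79%. Of the promoter tiles, 39 of 57 had means under 10% in all 3 tissues and none was over 50% in any tissue, and 85 of 93 CpG-dense body tiles were under 10% throughout. These are 68.4% and 91.4% of the Pax tiles, where 73.9% of promoter tiles and 78.1% of CpG-dense body tiles of all genes were under 10% in all tissues, and 9.86% and 13.3% were over 50% in all. The median tile was higher in the Pax genes than in all genes, at 3.89% against 1.74% for promoters and 3.06% against 1.38% for CpG-dense bodies in liver.

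The other tiles were the class that varied. Their mean ran from 40.3 to 42.2% in the liver libraries with a median of 40.7%, from 42.0 to 45.5% in the brain libraries with a median of 44.8%, and from 34.9 to 35.6% in the heart libraries with a median of 35.4%. Of the 550 other tiles, 140 were under 10% and 193 over 50% in all 3 tissues, which is 25.5% and 35.1%, against 8.92% and 66.4% in all genes. Over all genes this class averaged 69.8% (liver), 68.8% (brain) and 64.2% (heart), so its mean was lower in the Pax genes than in genes at large. The class was not matched for CpG number between the Pax genes and all genes, and it holds Pax tiles of up to 12 CpGs.

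**Figure D1:**
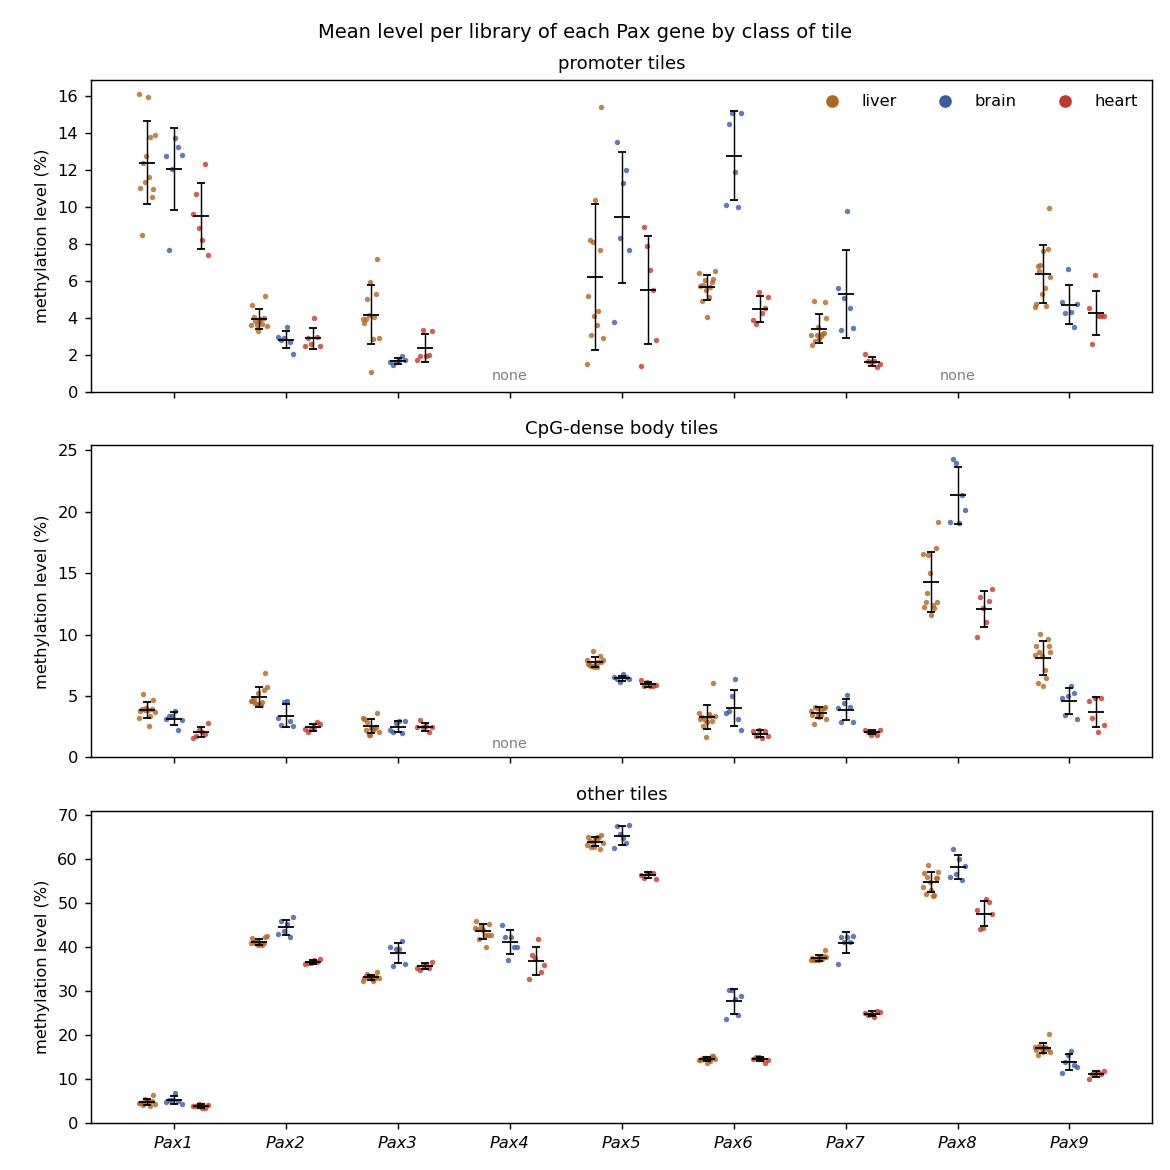
Mean methylation level (%, vertical axis) of each Pax gene in each library, in panels for promoter, CpG-dense body and other tiles, with liver, brain and heart libraries as coloured points and black marks for the mean and SD. Promoters and CpG-dense bodies stay low in most genes, the other tiles of Pax6 stand higher in brain and those of Pax7 lower in heart, and the vertical scales differ between panels.

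The question asked of the tissue tables was which Pax tiles differed between tissues. All 758685 shared tiles were fitted together with limma. A tile was called at a Benjamini-Hochberg adjusted p of 0.01 or less and a difference of 25 percentage points or more. The study uses these limits for males against females within a tissue, with methylKit, and not between tissues. Between brain and liver, 34 Pax tiles were higher in brain and 16 lower, against a background of 4.76% and 5.04% of all tiles. Between heart and liver, 6 were higher in heart and 37 lower, against 2.87% and 7.94%. Between brain and heart, 64 were higher in brain and 8 lower, against 7.71% and 1.75%. The 3 comparisons share libraries and are given side by side. As shares of the 700 tiles, the calls made up 7.14%, 6.14% and 10.3%, and within the other class they made up 9.09%, 7.82% and 13.1%, where the same class in all genes gave 12.2%, 13.4% and 10.2%. The share of Pax tiles called was thus near or under the background in both comparisons with liver and somewhat above it between brain and heart. The heart libraries were lower over all tiles. With every library shifted to the same mean, an alternative chosen after the data were seen, the calls between heart and liver were 8 higher and 20 lower, and those between brain and heart were 35 higher and 8 lower.

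In all, 104 Pax tiles were called in at least 1 comparison, and every one of them was an other tile under these class limits. With promoters of 2000 bp, 5 called tiles counted as promoter tiles, and with CpG-dense bodies from 5 CpGs, 5 counted as CpG-dense. None of the 57 promoter tiles and none of the 93 CpG-dense body tiles was called by limma in any comparison. With the adjusted p alone and no limit on size, 24 of 57 promoter tiles and 31 of 93 CpG-dense body tiles passed in at least 1 comparison, where 22.9% and 20.7% of such tiles in all genes did. Both Pax shares were above those of all genes. At an unadjusted p under 0.05, 27, 16 and 18 of the 57 promoter tiles and 40, 39 and 20 of the 93 CpG-dense body tiles differed between brain and liver, heart and liver, and brain and heart. At that limit the shares in all genes were 25.1%, 24% and 18.1% of promoter tiles and 24.2%, 22.3% and 15% of CpG-dense body tiles. The Pax share was the larger in each case. With both limits, in all genes, 4.12% of promoter tiles and 2.63% of CpG-dense body tiles were called between brain and liver, 3.83% and 2.31% between heart and liver, and 2.67% and 1.48% between brain and heart. A tile at a few percent can be called only by a rise, which bears on both counts. The called tiles held 0 to 6 CpGs with a median of 2, and 92 of the 104, or 88.5%, lay in introns, at a median of 39.0 kb from the first start. The other tiles that were not called held a median of 3 CpGs, and 74.2% of them lay in introns at a median of 16.7 kb. Repeats masked 50 or more bases in 4.81% of the called tiles and in 3.81% of the tiles not called.

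**Figure D2:**
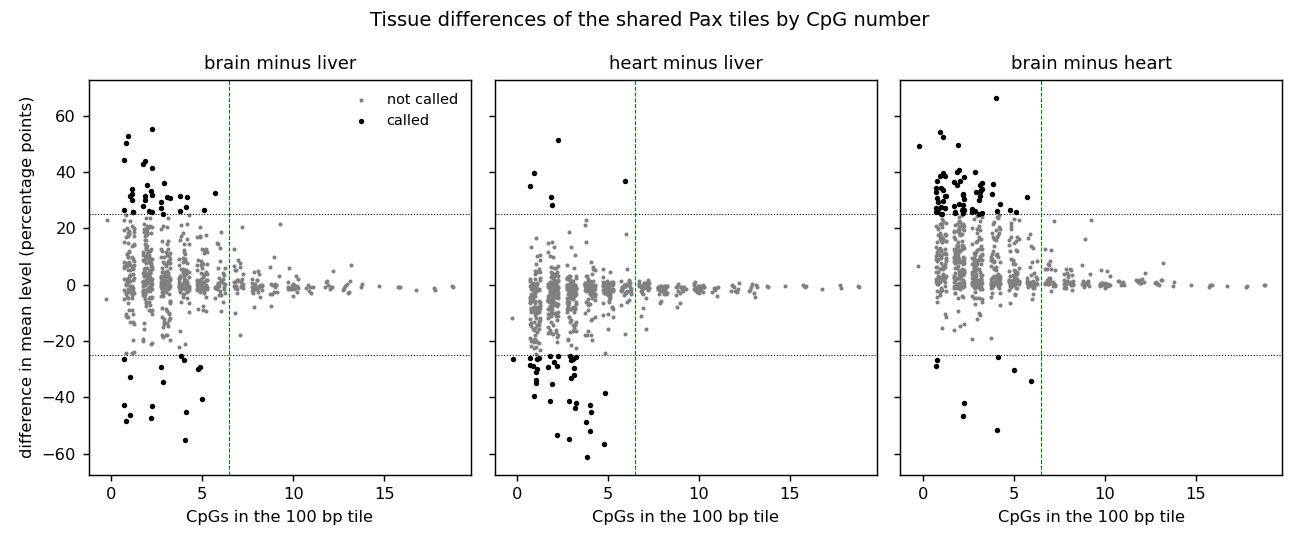
Difference between tissue means of each shared Pax tile (percentage points, vertical axis) by the number of CpGs in the tile (horizontal axis) for brain minus liver, heart minus liver and brain minus heart. Dotted lines mark 25 points, the dashed line separates tiles with 7 or more CpGs, and the called tiles, in black, lie left of it.

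Each tissue can also be set against both others. Every brain library lay above every liver and heart library in 69 of the 700 Pax tiles, or 9.86%, where 3.03% of all tiles did so. In 9 tiles, or 1.29%, every brain library lay below, against 2.6%. Every heart library lay below both other tissues in 37 Pax tiles, or 5.29%, against 6.77%, and above in 2, or 0.286%, against 0.43%. Every liver library lay above in 23, or 3.29%, against 4.13%, and below in 11, or 1.57%, against 3.06%. The tiles with brain above were spread unevenly. Pax6 held 32 of them in 83 tiles, Pax2 held 16 in 174, Pax7 held 10 in 117, Pax5 held 7 in 169, Pax3 held 3 in 64 and Pax8 held 1 in 19. Of the 37 tiles with heart below, Pax7 held 21, Pax2 7, Pax5 7, Pax1 1 and Pax8 1.

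Gene means were fitted in the same way over all genes of a class, with a call at an adjusted p of 0.01 or less and 10 points or more. In the other class, 7.94% of 21978 genes were higher and 7.74% lower in brain than in liver, 4.08% higher and 20.1% lower in heart than in liver, and 17.9% higher and 1.64% lower in brain than in heart, with median differences over genes of -0.825, -5.10 and 3.91 points. Among the Pax genes, Pax6 was called higher in brain than in liver and in heart, Pax7 was called lower in heart than in liver and higher in brain than in heart, and Pax8 was called higher in brain than in heart. No promoter mean and no CpG-dense body mean of a Pax gene passed both limits with limma, where 10.9%, 11.7% and 9.72% of 15206 genes did so for promoters and 5.78%, 5.45% and 4.33% of 13240 genes for CpG-dense bodies, in brain against liver, heart against liver and brain against heart. At an unadjusted p under 0.05, 5, 5 and 3 of 7 Pax promoter means and 5, 6 and 6 of 8 Pax CpG-dense body means differed in those comparisons, where 42.4%, 41.4% and 32.5% of all genes did for promoters and 40.7%, 39.4% and 27.8% for CpG-dense bodies.

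Pax6 and Pax4 share a paired domain of a kind used in the eye and the pancreatic islet. Pax6, which directs eye formation and marks neural progenitors and some neurons, was higher in brain over much of the gene. The mean of its 54 other tiles ran from 13.6 to 15.2% in the liver libraries with a median of 14.6%, from 23.7 to 30.3% in the brain libraries with a median of 28.5%, and from 13.7 to 15.0% in the heart libraries with a median of 14.5%. Every brain library was above every library of the other tissues, and liver and heart overlapped. The difference was 13.1 ± 0.736 points between brain and liver (SE, adjusted p = 1.01e-13) and 13.1 ± 0.85 points between brain and heart (adjusted p = 3.29e-12). With libraries shifted to a common mean, the difference from heart was 8.46 points and under the limit of 10. Brain and liver held 9 tiles called higher in brain and none lower, brain and heart 10 and none, and heart and liver 1, a tile across the end of the gene, which was higher in heart.

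The block furthest upstream in Pax6 was a pair of tiles at 2.15 and 2.05 kb before the first start, in DNA that an antisense transcript, Pax6os1, also spans. The tile whose sequence is shown, with 6 CpGs, ran from 1.2 to 2.5% in liver with a median of 1.75%, from 27.2 to 50.4% in brain with a median of 31.4%, and from 1.6 to 3.9% in heart with a median of 3.10%. It was 32.4 ± 2.18 points higher in brain than in liver (adjusted p = 1.47e-11) and 31.1 ± 2.52 points higher than in heart (adjusted p = 1.2e-09). Liver and heart were near 0 in this tile, and all brain libraries lay far above them. The 7 promoter tiles of the first start had lower brain means, of 1.68 to 16.4%, and the pair nearest the start was at 2.20 and 1.68%. In 1 of the 7, at 0.246 kb before the start, liver was the highest tissue, with a mean of 26.8% against 16.4% in brain and 13.0% in heart.

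The longest run of called neighbours in Pax6 lay in intron 1, at chr2:105674001-105674400, in the space between the first start and the starts that lie 6848 and 7233 bp further on. Its 4 tiles had brain means of 28.3, 31.9, 29.2 and 37.7%, liver means of 3.25, 5.46, 3.31 and 13.1%, and heart means of 2.05, 6.00, 2.63 and 9.18%. The brain libraries did not overlap with either tissue in these 4 tiles. Brain exceeded heart by 26.3 ± 2.11, 25.9 ± 3.32, 26.6 ± 2.81 and 28.5 ± 3.27 points, with adjusted p of 1.08e-09, 1.16e-06, 7.33e-08 and 2.39e-07. These differences stand just over the limit of 25 points, and the first 3 fall under it in some fits that leave out 1 library, with 22.7 points at the lowest. With libraries shifted to a common mean, all 4 fall under it, at 20.8, 20.5, 21.1 and 23.0 points. The tile at 17.1 kb, at chr2:105685901-105686000, which holds 43 coding bases and part of intron 7, had the largest range in the gene. It ran from 0 to 11.4% in liver with a median of 5.85%, from 24.5 to 68.9% in brain with a median of 45.2%, and from 5.6 to 17.5% in heart with a median of 8.40%, with a difference of 41.3 ± 4.26 points between brain and liver (adjusted p = 2.43e-08).

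In the promoter class of Pax6 brain was also highest, by less than the limit of 10 points. The mean of the 22 promoter tiles ran from 4.08 to 6.52% in liver with a median of 5.73%, from 9.995 to 15.1% in brain with a median of 13.2%, and from 3.66 to 5.40% in heart with a median of 4.40%. Brain lay above both other tissues, by 7.13 ± 0.650 points over liver (adjusted p = 3.29e-09) and 8.29 ± 0.751 points over heart (adjusted p = 8.82e-09). The largest differences lay before the last of the 4 starts, which is 13567 bp inside the gene. The promoter tile whose sequence is shown, with 9 CpGs and 12.6 kb from the first start, ran from 7.6 to 12.7% in liver, from 22.5 to 39.8% in brain and from 7.7 to 11.2% in heart, with medians of 10.8, 34.5 and 8.20%. Its difference was 21.4 points from liver and 23.0 points from heart, under the limit of 25. The next 4 shared tiles had brain means of 27.9, 25.7, 25.7 and 28.5%, and the 4 closest to that start had 8.80 to 12.4%. The CpG-dense body of Pax6, 7 tiles, stayed at 2.26 to 6.34% in the brain libraries, and its tile with the largest range, in intron 1 at chr2:105669601-105669700, had medians of 3.35% in liver, 8.25% in brain and 2.95% in heart. Pax4, an islet factor, had 2 tiles upstream at means of 1.28 to 4.70% and 2 in the body at 58.8 to 91.6%. Its tile in coding exon 4, at chr6:28446201-28446300, had medians of 77.9% in liver, 66.5% in brain and 60.4% in heart, and none of its tiles was called.

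**Figure D3:**
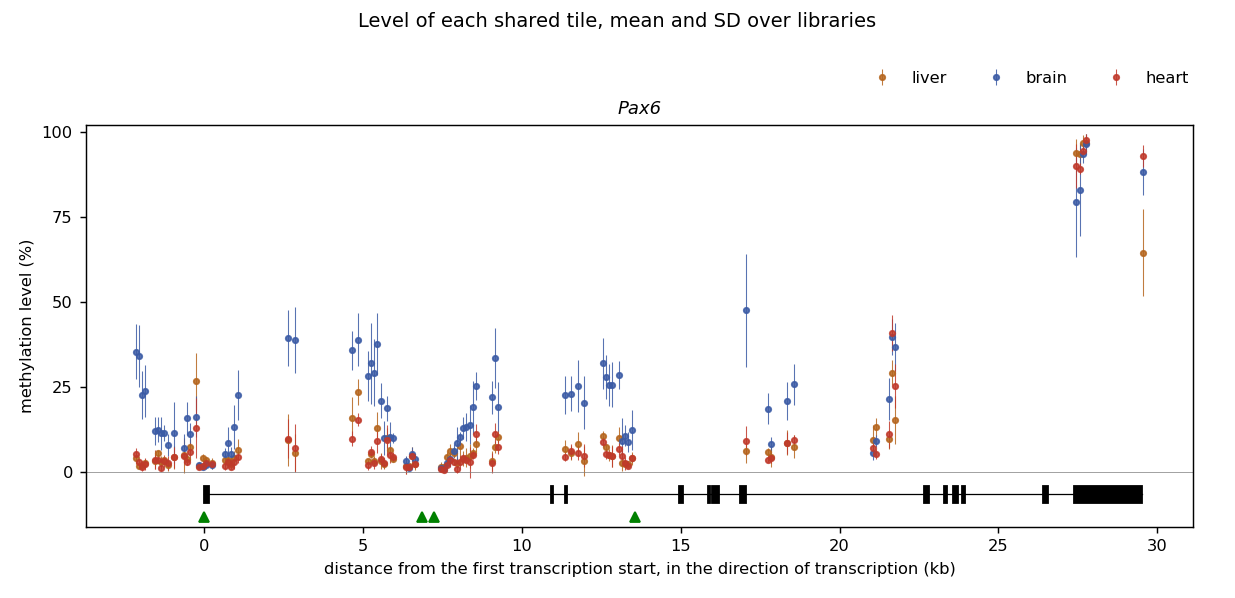
Methylation level (%, vertical axis) of each shared Pax6 tile by distance from the first transcription start (kb, horizontal axis), as mean and SD over 12 liver, 6 brain and 6 heart libraries. Black boxes are exons and green triangles are the 4 starts. Brain lies above liver and heart in the flank, in intron 1 and before the last start, where its tile means reach 35.4, 39.4 and 31.9%.

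Pax7 and Pax3 mark muscle precursors and neural crest, and Pax7 is kept in adult muscle stem cells. The 86 other tiles of Pax7 were lower in heart. Their mean ran from 37.0 to 39.3% in liver with a median of 37.3%, from 36.2 to 42.5% in brain with a median of 41.7%, and from 24.0 to 25.4% in heart with a median of 24.8%. Every heart library was below every library of the other tissues, and liver and brain overlapped. Heart was 12.7 ± 0.664 points below liver (difference -12.7, adjusted p = 1.81e-14) and brain was 16.1 ± 0.767 points above heart (adjusted p = 2.34e-14). Over all genes the median difference between heart and liver was -5.10 points in this class, and with libraries shifted to a common mean the Pax7 difference was -7.77 points and not called. Between heart and liver 19 Pax7 tiles were lower in heart and none higher, and between brain and heart 23 were higher in brain and none lower. Between brain and liver 5 were higher and 4 lower in brain.

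Of the 19 tiles lower in heart than in liver, 18 lay in intron 4. This intron is long, from 4392 to 48286 bp after the start in a gene of 94888 bp. The share of all Pax7 tiles that lie in it is not given here, so the count does not show a concentration there. The 3 neighbouring tiles at chr4:139788701-139789000, 44.0 to 44.2 kb from the start, held the largest differences of the gene. The tile whose sequence is shown ran from 60.0 to 84.2% in liver with a median of 69.0%, from 32.7 to 52.3% in brain with a median of 42.4%, and from 8.8 to 23.5% in heart with a median of 15.1%. The 3 tissues did not overlap in it, in the order liver, brain, heart. The tile at chr4:139788901-139789000 ran from 71.6 to 89.7% in liver with a median of 84.2%, from 43.2 to 75.5% in brain with a median of 54.2%, and from 14.3 to 31.0% in heart with a median of 20.1%. Heart was 61.1 ± 3.91 points lower than liver there (difference -61.1, adjusted p = 6.76e-12), the largest range of tissue means in Pax7. Brain and liver overlapped in this tile, and their difference of -25.2 points fell under the limit when any of 9 single libraries was left out, to -22.5 points at the smallest.

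A run of 4 called neighbours, the longest between heart and liver, lay at chr4:139796001-139796400. Its liver means alternated between tiles, at 78.4, 41.5, 73.9 and 38.3%, with heart at 53.1, 14.6, 47.4 and 9.28%. The 4 differences were -25.4 ± 2.85, -26.9 ± 3.16, -26.5 ± 4.51 and -29.0 ± 2.53 points, with adjusted p of 9.07e-08, 1.84e-07, 3.45e-05 and 1.42e-09. The order of the levels along the run was the same in both tissues, and no heart library reached the lowest liver library in any of the 4 tiles. With libraries shifted to a common mean, all 4 fall under the limit, at -19.8, -21.3, -20.9 and -23.5 points. Further blocks of the same direction lay at 32.1, 27.3 and 24.9 kb, with heart means of 29.98, 24.9 and 30.4% and liver means of 59.1, 68.7 and 68.8% in their tiles furthest from the start. Elsewhere in intron 4, brain stood apart. The tile at 19.6 kb had means of 13.6% in liver, 43.5% in brain and 3.45% in heart, and was called higher in brain than in liver and heart.

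The CpG-dense body of Pax7 was low. Its 24 tiles averaged 2.75 to 4.13% in the liver libraries with a median of 3.63%, 2.85 to 5.09% in brain with a median of 4.07%, and 1.81 to 2.21% in heart with a median of 2.09%, and 23 of the 24 were under 10% in all tissues. The remaining tile, in coding exon 3 at chr4:139829501-139829600, ran from 3.0 to 18.6% in liver, from 4.1 to 30.1% in brain and from 1.4 to 6.1% in heart. Pax3 differed less. Its 56 other tiles had library medians of 33.2% in liver, 39.5% in brain and 35.5% in heart, and brain was above liver by 5.53 ± 0.634 points (adjusted p = 3.93e-08), under the limit of 10. The tile with the largest range of Pax3 lay in the 3′ untranslated exon, at chr1:78103101-78103200. It ran from 10.3 to 39.7% in liver with a median of 24.1%, from 73.0 to 91.4% in brain with a median of 80.2%, and from 69.2 to 84.9% in heart with a median of 75.2%. Liver was below both other tissues without overlap, and brain and heart overlapped. Brain exceeded liver by 55.3 ± 3.79 points (adjusted p = 2.04e-11). In the intron 4 tile of Pax3 whose sequence is shown, heart was the highest tissue. It ran from 21.2 to 34.8% in liver with a median of 29.9%, from 13.7 to 47.1% in brain with a median of 37.6%, and from 63.7 to 68.2% in heart with a median of 66.1%, with all heart libraries above all others. Of the 6 CpG-dense body tiles of Pax3, none had a mean over 4.95% in any tissue, and the one with the largest range, in intron 1 at chr1:78196301-78196400, had medians of 2.90% in liver, 4.85% in brain and 4.55% in heart.

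**Figure D4:**
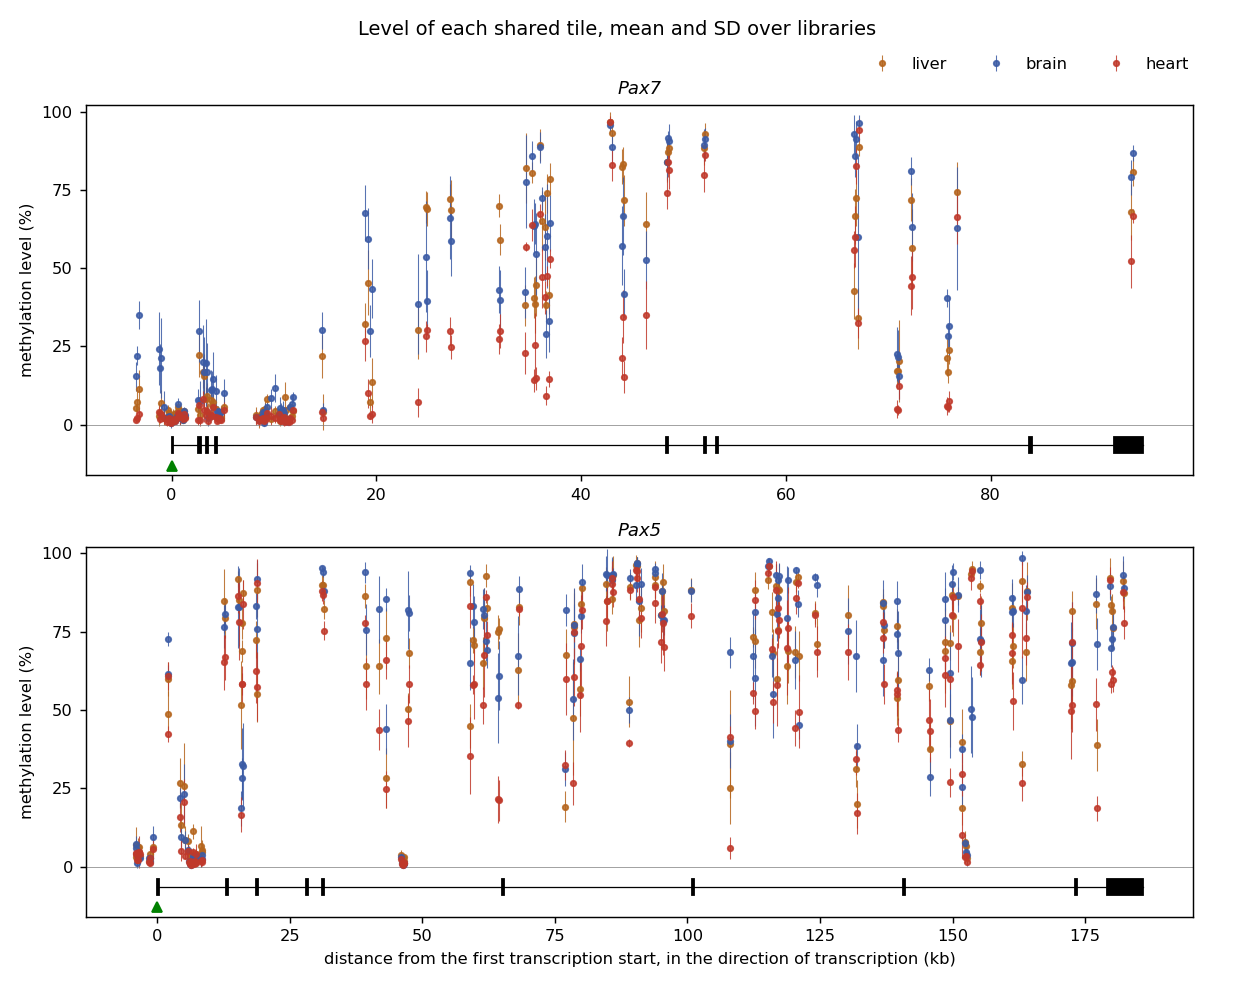
Methylation level (%, vertical axis) of each shared tile of Pax7 (upper panel) and Pax5 (lower panel) by distance from the transcription start (kb, horizontal axis), as mean and SD over 12 liver, 6 brain and 6 heart libraries, with exons as black boxes and the start as a green triangle. Heart lies lowest in blocks within intron 4 of Pax7, and brain lies far below liver in a block from 15.8 to 16.2 kb of Pax5, where the liver means are between 51.6 and 87.3%.

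Pax2, Pax5 and Pax8 make up a subfamily that acts in the midbrain and hindbrain border, the kidney, the thyroid and B cells. Pax5, the factor that commits and keeps B cells, had the highest level of the 3 in its other tiles. Its 147 other tiles ran from 62.3 to 65.4% in the liver libraries with a median of 64.0%, from 62.6 to 67.8% in brain with a median of 65.3%, and from 55.4 to 56.9% in heart with a median of 56.5%, and 95 of them were over 50% in all tissues. Liver and brain overlapped and heart lay below both. The differences from heart, -7.61 ± 0.673 points for heart against liver and 8.98 ± 0.777 points for brain against heart (adjusted p = 2.55e-10 and 4.02e-10), were under the limit of 10.

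Single blocks of Pax5 went in each direction. In intron 2, the tiles at chr4:44694401-44694500 and chr4:44694601-44694900 were lower in brain. The tile whose sequence is shown ran from 80.3 to 95.1% in liver with a median of 87.8%, from 17.4 to 56.1% in brain with a median of 28.6%, and from 75.8 to 95.6% in heart with a median of 82.7%. Brain was 55.2 ± 4.03 points below liver (difference -55.2, adjusted p = 6.33e-11) and 51.6 ± 4.65 points below heart (difference -51.6, adjusted p = 6.39e-09), with no overlap. The tile at the near end of the block, 15.8 kb from the start, had means of 51.6% in liver, 18.6% in brain and 16.6% in heart, so that heart joined brain there. In intron 8, a tile 154 kb from the start ran from 89.8 to 98.1% in liver, from 27.2 to 61.8% in brain and from 92.8 to 96.2% in heart. A pair of tiles in intron 5, at 64.4 and 64.3 kb, was lowest in heart, at means of 21.1 and 21.5%, with liver at 76.0 and 74.95% and brain at 61.0 and 53.8%. In the comparison of brain with heart, 15 Pax5 tiles were higher in brain and 5 lower.

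Pax5 also held low tiles far from its start. A block of 6 tiles in intron 5, at chr4:44664101-44664700 and 46.0 kb from the start, held 8 to 18 CpGs a tile and had tissue means of 0.533 to 3.87%. A block of 3 tiles in intron 8, at chr4:44558001-44558400, of which 1 was CpG-dense, was at 1.42 to 7.93%. The exception among CpG-dense tiles was in coding exon 5, at 31.1 kb, with 7 CpGs. It ran from 83.3 to 94.5% in liver with a median of 90.8%, from 94.4 to 96.3% in brain with a median of 95.2%, and from 82.1 to 91.2% in heart with a median of 88.9%, and was the only Pax tile of its class over 50% in any tissue. A CpG-dense tile in intron 1, at chr4:44703901-44704000 and within the span of the transcript 5730488B01Rik, had medians of 11.2% in liver, 3.60% in brain and 4.40% in heart, with liver above brain by 7.83 points (brain minus liver -7.83 ± 1.04, adjusted p = 1.38e-06).

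Pax2, which acts in kidney, eye and ear, had the largest single difference of the family. The intron 4 tile whose sequence is shown, 39.0 kb from the first start, ran from 67.8 to 77.3% in liver with a median of 72.8%, from 81.1 to 90.5% in brain with a median of 87.7%, and from 12.4 to 27.9% in heart with a median of 21.1%. The 3 tissues did not overlap. Brain exceeded heart by 66.3 ± 2.07 points (adjusted p = 4.71e-16), and heart was 51.8 ± 1.79 points below liver (difference -51.8, adjusted p = 1.55e-16). The tile before it had means of 68.4% in liver, 83.0% in brain and 28.9% in heart. At 73.6 and 73.7 kb, in intron 8, brain was the low tissue instead, at means of 27.8 and 26.4%, with liver at 70.7 and 74.9% and heart at 56.6 and 53.3%. A tile at 64.0 kb, in intron 6, was low in liver alone. Its libraries ran from 25.3 to 44.6% in liver with a median of 33.0%, from 82.5 to 92.5% in brain with a median of 85.6%, and from 63.6 to 79.2% in heart with a median of 75%. Each tissue was thus the low one in some intron of Pax2.

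As a whole gene, the 134 other tiles of Pax2 had library medians of 41.0% in liver, 44.5% in brain and 36.4% in heart, and the differences, 3.28 ± 0.549, -4.63 ± 0.549 and 7.91 ± 0.633 points in brain against liver, heart against liver and brain against heart, were all under the limit. In those 3 comparisons 12, 3 and 14 tiles were higher and 5, 8 and 2 lower. The promoter tiles of Pax2 ran from 3.32 to 5.22% in liver, from 2.07 to 3.53% in brain and from 2.49 to 4.02% in heart. Its CpG-dense body tile with the largest range, in intron 1 at chr19:44752201-44752300, ran from 16.0 to 28.0% in liver with a median of 23.8%, from 2.4 to 11.7% in brain with a median of 4% and from 4.8 to 10.1% in heart with a median of 6.85%, with liver above both. A stretch of 15 tiles over the last exons, at chr19:44835401-44838200 and 88.8 kb from the first start, was at 0.433 to 9.71% in all tissues. The transcript 1700039E22Rik lies within Pax2 and ends before the last exon.

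Pax8, the thyroid and kidney member, had 19 shared tiles. Its 16 other tiles ran from 51.6 to 58.5% in liver with a median of 55.3%, from 55.2 to 62.3% in brain with a median of 57.5%, and from 44.1 to 51.0% in heart with a median of 47.9%. Liver and brain overlapped and heart lay below both. The difference between brain and heart, 10.5 ± 1.42 points (adjusted p = 5.33e-07), was just past the limit. It was 9.66, 9.82 and 9.85 points without the second brain, the second heart or the third heart column, 9.17 points with promoters of 1000 bp on both sides of the start, and 5.85 points with libraries shifted to a common mean. The tile with the largest range, in intron 9 at chr2:24433401-24433500, had medians of 79.5% in liver, 80.3% in brain and 53.2% in heart. Inside the start, 0.549 kb from it, the tile across exon 2 and intron 2 was at an intermediate level in every tissue. It ran from 30.7 to 49.8% in liver with a median of 36.8%, from 40.2 to 61.0% in brain with a median of 48.1%, and from 28.4 to 36.3% in heart with a median of 32.8%. This tile held 9 CpGs, and the other 2 CpG-dense tiles of Pax8, further into the gene, had means between 1.27 and 8.80%. Repeats masked 23 of the 100 bases of the exon 2 tile.

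Pax1 and Pax9 act in the vertebral column, the thymus and the teeth and carry no homeodomain. Pax1 was low nearly throughout. Its 24 other tiles ran from 3.89 to 6.31% in liver, from 4.19 to 6.70% in brain and from 3.30 to 4.30% in heart, with medians of 4.63, 5.04 and 3.82%, and no Pax1 tile had a tissue mean over 27.0%. The 3 tissues overlapped, and no tile was called. The tile with the largest range, a promoter tile at chr2:147364301-147364400, had medians of 11.2% in liver, 22.9% in brain and 12.5% in heart. The CpG-dense body tile with the largest range, in coding exon 4 at chr2:147368401-147368500, had medians of 9.90% in liver, 8.85% in brain and 2.30% in heart. The promoter mean of Pax1, over 4 tiles, had library medians of 12% in liver, 12.8% in brain and 9.24% in heart and was the highest promoter mean of the family in liver and heart. Of the 29 other tiles of Pax9, 19 were under 10% in all tissues and 2 over 50% in all. The tile whose sequence is shown, in intron 3 at 13.8 kb, ran from 68.8 to 94.1% in liver with a median of 82.2%, from 21.1 to 48.2% in brain with a median of 41.3%, and from 46.6 to 57.1% in heart with a median of 53.4%. Liver was above both other tissues, by 46.2 ± 3.63 points over brain (brain minus liver -46.2, adjusted p = 2.30e-10) and 30.9 ± 3.63 points over heart (heart minus liver -30.9, adjusted p = 1.74e-07). The 3 tiles at chr12:56709701-56710000, in the last exon, were also called lower in heart than in liver, with heart means of 50.1, 40.6 and 25.02% and liver means of 76.5, 73.8 and 70.0%. The CpG-dense body tile of Pax9 with the largest range, in intron 3 at chr12:56700501-56700600, ran from 13.7 to 25.5% in liver with a median of 20.4%, from 6.9 to 14.9% in brain with a median of 9.90%, and from 4.2 to 12.9% in heart with a median of 10.1%. Liver overlapped with brain and not with heart. Slc25a21 overlaps the end of Pax9.

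**Figure D5:**
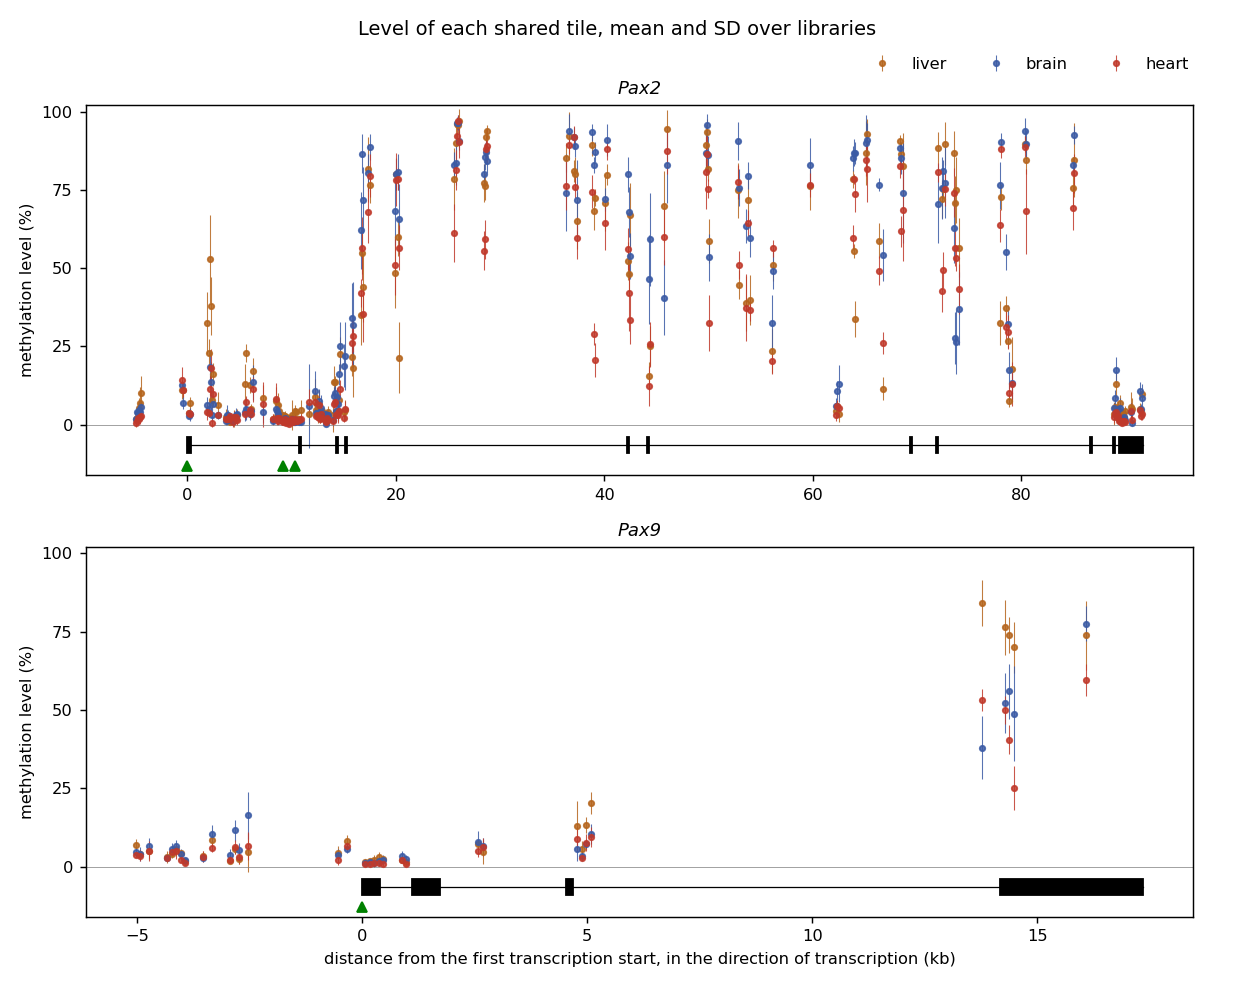
Methylation level (%, vertical axis) of each shared tile of Pax2 (upper panel) and Pax9 (lower panel) by distance from the first transcription start (kb, horizontal axis), as mean and SD over 12 liver, 6 brain and 6 heart libraries, with exons as black boxes and starts as green triangles. Pax2 is low around its starts and over its last exons and varies between tissues in the introns between them, and in Pax9 the tile at 13.8 kb has liver at 84.2%, brain at 38.0% and heart at 53.2%.

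A list of 59 genes that act with or downstream of Pax proteins, described by its counts and medians, gave 58 genes with other tiles, 51 with CpG-dense body tiles and 47 with promoter tiles. In the other class, 4 were called higher and 3 lower in brain than in liver, 4 higher and 8 lower in heart than in liver, and 8 higher and 2 lower in brain than in heart. The medians were 0.782, -1.92 and 2.44 points, beside -0.825, -5.10 and 3.91 points over all genes. Sox9, a cartilage factor, was lower in brain and heart than in liver, with means of 18.6% in liver, 5.68% in brain and 4.78% in heart over 8 tiles. Cd79b, a part of the B cell receptor, was 32.0 points lower in heart than in liver (difference -32.0 ± 1.80, adjusted p = 6.90e-14), with means of 76.5% in liver, 73.9% in brain and 44.5% in heart over 5 tiles. Both were named after their values were seen. In CpG-dense bodies, 1, 0 and 2 genes were called higher and 3, 2 and 0 lower in those comparisons, and in promoters 2, 0 and 4 higher and 0, 1 and 1 lower. Over all genes, 5.78%, 5.45% and 4.33% of CpG-dense body means were called in either direction. For promoter means the shares were 10.9%, 11.7% and 9.72%. Other-class means of all genes were called higher in 7.94%, 4.08% and 17.9% and lower in 7.74%, 20.1% and 1.64%.

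The level of the Pax CpG-dense bodies was also compared with that of other genes rich in such tiles. Among 91 genes with 20 or more of them, the distance of the 3 tissue means from those of the family was smallest, Pax genes aside, for Sox1ot at 2.02 points, Lhx2 at 2.31, Skor2 at 2.37, Lhx5 at 2.59 and Hoxa3 at 2.69. Among the Pax genes with as many tiles, Pax2 lay at 1.73 points, Pax7 at 2.32 and Pax5 at 3.92. These 3 genes supply 21, 24 and 21 of the 93 tiles behind the family means. Their distances are thus in part distances to themselves and cannot be set against those of the other genes. The family means also include 1 Pax5 tile, in coding exon 5, at 89.95% in liver, 95.3% in brain and 88.0% in heart. The median of the 93 tiles was 3.06, 2.48 and 1.75% in those tissues. Distances without that tile were not computed, so the order of the genes may rest on it.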

How the data were processed

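Enhanced reduced representation bisulphite libraries had been made, sequenced and mapped for the study by a service provider, and the submitters' processing notes name Bismark, methylKit and the mm10 build. The deposited tables give, for each 100 bp tile and library, the methylated share of reads, which the authors wrote as a fraction on a percent scale, in each tissue for tiles with more than 10 reads in every library. Read numbers per tile were not used here, so the depth behind a level is unknown and no interval for counting error is given. RefSeq genes and sequence of GRCm38.p6 were used for annotation. In that build 99.5% of tiles held a CpG, against 54.5% after a shift of 100000 bp.

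Tissue level was the mean over all libraries. Tiles present in all 3 tissues were fitted together on the percent scale with limma 3.58.1 in R 4.3.3, and p-values were adjusted by Benjamini-Hochberg over all tiles. The limits of 0.01 and 25 points were those the study set between genders. Gene means by class were fitted over all genes with a limit of 10 points. The remaining steps used Python 3.11.15 with numpy 2.4.6 and pandas 2.3.3. Scripts were tested on simulated data. All measured columns could be tied to a tissue but not to a mouse, and the p-values set differences against the spread between these libraries. The fit used a common spread for the 3 tissues of a tile or gene mean. For the other tiles of Pax6 the SD was 2.85 points in brain, 0.463 in liver and 0.480 in heart. In such cases the SE and p of brain comparisons are smaller than the spread of the brain libraries alone would give.

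Named in the text were all 9 genes, the tile and the CpG-dense body tile with the largest range of tissue means in each, the longest runs of called neighbours, and the 5 genes nearest in CpG-dense level. Exons were numbered in the longest curated transcript, and a tile was given the feature that most of its bases have. The members and lists were chosen with earlier results of these data known. Alternatives changed the scale, the size limits, the class limits, the summary over tiles and the libraries used.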

Additional observations from a re-analysis of the deposited data

Results flagged for a closer look

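In each tissue with 6 libraries, the gene means by class were searched for a library far from the rest by Dixon's ratio, in 48 groups with a limit of 0.625, where chance flags about 1 in 20 groups. The promoter mean of Pax1 was 7.70% in 1 brain library, with the others at 12.05 to 13.7%. The promoter mean of Pax2 was 4.02% in 1 heart library, with the others at 2.49 to 2.95%. The promoter mean of Pax7 was 9.79% in 1 brain library, with the others at 3.36 to 5.60%. The mean of the other tiles of Pax7 was 36.2% in 1 brain library, with the others at 41.1 to 42.5%. That library was a different one from the pair flagged for the Pax1 and Pax7 promoters in brain, and without it 77 Pax tiles were called between brain and heart.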

How the results depend on the processing

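No paired analysis was possible because the columns of levels carry no mouse number. With a size limit of 10 points, 162, 126 and 195 Pax tiles were called between brain and liver, heart and liver, and brain and heart, and with no size limit 244, 187 and 255, against 50, 43 and 72. With libraries centred on a common mean, chosen after the data were seen, 28 were called between heart and liver and 43 between brain and heart. Leaving out 1 library gave 47 to 52, 40 to 44 and 62 to 77 calls. Promoter tiles, 0 called, gave 8 at 10 points, 24 with no limit and 5 with promoters of 2000 bp, and CpG-dense body tiles, 0 called, gave 4, 31 and, from 5 CpGs, 5. Class means called between brain and liver, 1, became 2 with promoters of 2000 bp, 2 with 1000 bp on both sides and 3 by the median over tiles. Between heart and liver, 1 became 2, 2 and 3, and 0 with centred libraries. Between brain and heart, 3 became 5 by the median, 1 with centred libraries and 2 to 3 with 1 library left out. Other than through the construction of these settings, the cause of the changes was not tested. Of 160 values for 5 differences of gene means, 153 kept their call, 7 fell under the limit and 0 changed direction, and of 891 values for 33 single-tile differences the numbers were 842, 49 and 0. Of 57 values for 9 family mean levels, 34 moved by more than 1 SD between libraries. The unknown depth leaves the counting error of single tiles unmeasured.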
